A study of Mus musculus with 8 samples.

Results

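Iron, heme and erythroid genes were followed in whole hearts of mice at postnatal day 12. The set holds 31 genes of the 22518 in the table, chosen by name for their roles in heme synthesis, heme breakdown, iron handling, iron-sulfur cluster assembly and red cells. The choice was made with earlier results of these data known. Of these, 30 were matched by gene symbol and 1, Epb42, by its gene identifier, since the table lists it under an older symbol. The 25 genes of tissue heme and iron metabolism were set beside 6 genes typical of red cells and their precursors. RNA was sequenced from 4 hearts of wild type littermates and 4 hearts of mice with an endothelial knockout of PHD2 and PHD3, all on a C57BL/6 background. PHD2 and PHD3 are oxygen-dependent prolyl hydroxylases that mark hypoxia-inducible factors (HIF) for degradation. Which driver deleted the genes in endothelium, and whether each library came from a separate animal, is not given in the sources used here. The p-values therefore reflect only how these samples vary, which may be technical variation.

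Heme is built from glycine and succinyl-CoA in a chain of enzymes that starts and ends in the mitochondrion, and ferrochelatase inserts iron in the last step. Nearly all cells start the chain with ALAS1, whereas red cell precursors use ALAS2 to supply hemoglobin. Iron enters cells bound to transferrin through the transferrin receptor, is stored in ferritin and leaves through ferroportin, which the hormone hepcidin removes from the cell surface. Hypoxia-inducible factors and iron metabolism are linked, because the prolyl hydroxylases need iron and because several genes of iron uptake and heme breakdown are known HIF targets.

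Values were taken as FPKM (fragments per kilobase of transcript, scaled to the mapped fragments of a library) after quantile normalisation. Unit and normalisation were inferred from the named processing tools and from the values. Quantile normalisation makes the distributions of the libraries nearly alike, and the depth of sequencing is unknown. Means are given ± SD with n = 4 per group. Log2 changes, given ± SE, are knockout minus wild type on the scale of log2(FPKM + 1), where the change of a low gene is understated. A gene was called at an adjusted p under 0.05 in limma over all 11390 genes that averaged at least 1 FPKM.

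The tissue label was checked against marker genes, with Myh6 at 2883 to 3836 FPKM and Pecam1 at 89.7 to 119 FPKM. The 6 cardiomyocyte markers summed to 23847 to 24718 FPKM in wild type and 20485 to 23645 FPKM in knockout hearts, and the 6 endothelial markers to 327 to 339 and 284 to 315 FPKM, without overlap. Of the 6 cardiomyocyte markers, 3 had log2 changes above 0 and 3 below. Among them limma called Tnni3 lower (adjusted p = 0.0169). The endothelial markers did not all move with their sum either. Pecam1 was higher in each knockout heart than in any wild type heart (log2 change 0.24, limma adjusted p = 0.0665). The other 5 had log2 changes below 0, and Tie1 and Tek were called lower (limma adjusted p of 0.00202 and 0.00779). Whether the endothelial content of the hearts differed was not tested. Neither targeted gene had a lower mean after deletion. Egln1 (PHD2) was at 45.2 to 57.9 FPKM in wild type and 52.6 to 63.5 FPKM in knockout hearts, and Egln3 (PHD3) at 18.0 to 38.7 and 32.6 to 52.8 FPKM. Gene-level values of a whole heart do not check an endothelial deletion, and the genotype is taken from the labels. Wild type replicate 4 stood apart through airway genes, with Scgb1a1 at 1030.4 FPKM against at most 0.323 FPKM in the other 7 hearts. The library number of knockout replicate 4 lies apart from the rest, and what that number stands for is not given in the sources used here.

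The promoters of Alas2 and the α-globin genes are shown first. These genes kept one order of hearts within each group, as described below, and the reason for that order was not tested. The sequences are from RefSeq on GRCm38.p6 and give the 250 bases before the annotated start of transcription, 5′ to 3′, with GATA words (AGATAA or TGATAA) and CACCC words in capitals on either strand. GATA1 and KLF1, the main erythroid transcription factors, are known to bind such words. The windows are chrX:150547167-150547416 (plus strand) for Alas2, chr11:32283422-32283671 (plus strand) for Hba-a1, chr11:32296242-32296491 (plus strand) for Hba-a2 and, for the tissue enzyme, chr9:106247955-106248204 (minus strand) for the more upstream of the 2 annotated starts of Alas1.
Alas2: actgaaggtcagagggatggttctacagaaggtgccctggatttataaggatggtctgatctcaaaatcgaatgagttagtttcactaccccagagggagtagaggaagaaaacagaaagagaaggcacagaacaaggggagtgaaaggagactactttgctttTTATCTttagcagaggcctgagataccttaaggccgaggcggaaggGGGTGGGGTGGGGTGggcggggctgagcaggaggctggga
Hba-a1: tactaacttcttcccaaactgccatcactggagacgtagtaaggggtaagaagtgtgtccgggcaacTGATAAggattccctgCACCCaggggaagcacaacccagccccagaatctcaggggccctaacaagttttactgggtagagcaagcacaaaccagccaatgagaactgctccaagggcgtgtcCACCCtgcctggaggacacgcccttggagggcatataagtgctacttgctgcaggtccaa
Hba-a2: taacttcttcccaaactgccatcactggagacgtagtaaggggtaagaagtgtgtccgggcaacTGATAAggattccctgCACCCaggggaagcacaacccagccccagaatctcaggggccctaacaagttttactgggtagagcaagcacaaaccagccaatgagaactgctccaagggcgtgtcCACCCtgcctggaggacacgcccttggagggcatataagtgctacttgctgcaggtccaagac
Alas1: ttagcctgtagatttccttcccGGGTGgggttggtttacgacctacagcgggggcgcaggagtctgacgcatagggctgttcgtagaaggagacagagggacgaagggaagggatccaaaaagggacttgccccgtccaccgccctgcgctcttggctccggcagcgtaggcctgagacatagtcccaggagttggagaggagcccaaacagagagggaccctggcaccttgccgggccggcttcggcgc
The Alas2 window held 1 GATA word and 3 adjacent CACCC words, both α-globin windows held 1 GATA and 2 CACCC words, and the Alas1 window held 0 GATA words and 1 CACCC word. RefSeq windows were found for 5 of the 6 erythroid and 18 of the 25 tissue genes. A GATA word was present in 4 of 5 erythroid windows, in 4 of 29 windows of tissue genes and in 16.6% of all 32851 promoter windows of this length. CACCC was present in 3 of 5 and 16 of 29 of these windows and in 52% of all windows. The core word of HIF binding, ACGTG or GCGTG on either strand, was in 2 of 5 erythroid windows (Hba-a1 and Hba-a2), in 14 of 29 tissue windows and in 38.6% of all windows. The windows follow the RefSeq starts, and the gene bounds of GENCODE M21 reach into the Alas2 and α-globin windows. The Alas1 window lies wholly inside the GENCODE bounds of its gene, whose upstream end on the minus strand is at 106248654. It is therefore not upstream of the gene in that annotation. The Hba-a1 and Hba-a2 windows were identical at 247 of 253 aligned positions (97.6%), so their matches, 2 of the 4 erythroid windows with a GATA word and both with a HIF core word, come from nearly one sequence. These matches describe letters in the windows and do not show binding.

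Among the tested members, the α-globin genes and Alas2 varied most from heart to heart. All 4 tested red cell genes had lower means in the knockout hearts, but their groups overlapped and 0 passed the test in limma, where 12.2% of all genes were called. At an unadjusted p under 0.05 there were 3 of 4, all lower, against 29.6% of all genes. Hba-a1, which encodes the α chain of adult hemoglobin (ENSMUSG00000069919, chromosome 11, 32283511 to 32284465 in GENCODE M21 on mm10), measured 547, 934, 2631 and 1218 FPKM in the wild type hearts, by replicate number, and 282, 487, 684 and 86.5 FPKM in the knockout hearts in the same order. Wild type replicate 3 was the highest and knockout replicate 4 the lowest of the 8 hearts, 30.4-fold apart, and wild type replicate 1 lay below knockout replicate 3. The group means were 3.46-fold apart (1333 ± 909 and 385 ± 258 FPKM), with a log2 change of -1.91 ± 0.71 and a limma adjusted p = 0.122. Hba-a2, the second α-globin gene, was at 654, 899, 3502 and 1476 FPKM in wild type and 364, 610, 874 and 104 FPKM in knockout hearts (log2 change -1.81 ± 0.76, limma adjusted p = 0.159). The coding sequences of Hba-a1 and Hba-a2 in GENCODE M21 differed at 1 of 426 bases and their proteins at 0 of 142 residues. The authors' quantification could therefore divide reads between the copies, and the values of each copy alone are uncertain. The highest of these values sit among the muscle genes at the top of the quantile-normalised scale, where Hba-a2 ranked 20th of all genes in wild type replicate 3 and 627th in knockout replicate 4.

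Alas2, the erythroid enzyme that starts heme synthesis (chromosome X, 150547375 to 150570638), was at 7.23, 15.5, 34.1 and 23.0 FPKM in wild type and 3.42, 7.73, 9.42 and 1.89 FPKM in knockout hearts. Its log2 change was -1.65 ± 0.53 (limma adjusted p = 0.0759), and wild type replicate 1 lay below knockout replicates 2 and 3. Without wild type replicate 1 the change was -2.04 and passed the test (limma adjusted p = 0.0434), while in the other 7 omissions of 1 heart it did not. Bpgm, which makes the red cell effector that loosens oxygen from hemoglobin and which other tissues also express, was at 11.0, 14.1, 25.3 and 16.3 FPKM in wild type and 10.7, 13.0, 13.7 and 13.5 FPKM in knockout hearts (limma adjusted p = 0.352). Bpgm thus differed 2.37-fold between the extreme hearts against 18.0-fold for Alas2. Without wild type replicate 3 its log2 change of -0.31 ± 0.21 was -0.10.

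The membrane protein genes Slc4a1 and Epb42 were too low to be tested, with means under 1 FPKM. Slc4a1, which encodes the anion exchanger band 3, was listed at 0.349, 0.652, 1.20 and 0.589 FPKM in wild type and 0.322, 0.113, 0.213 and 0.209 FPKM in knockout hearts. Every wild type heart lay above every knockout heart, although wild type replicate 1 and knockout replicate 1 were close (exact two-sided permutation p = 0.0286, the smallest that the 70 splits allow). Groups without overlap were found for 20.7% of the genes tested in limma. Epb42, which encodes the band 3 partner protein 4.2, was listed at 0.0132, 0.0839, 0.236 and 0.418 FPKM in wild type hearts, at 0 in 3 knockout hearts and at 0.0358 FPKM in knockout replicate 4 (exact two-sided permutation p = 0.0571). These 2 tests are given because the genes lay outside the limma fit, and they are not adjusted for the other members.

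The adult globins and Alas2 kept one order of hearts within each group. Within the wild type group, Hba-a1, Hba-a2, Hbb-b1, Hbb-b2 and Alas2 each ran from replicate 3 through 4 and 2 down to 1, and within the knockout group from replicate 3 through 2 and 1 down to 4. The β-globin genes, outside the set, had the same pattern, with Hbb-b1 at 680 to 3011 FPKM in wild type and 116 to 825 FPKM in knockout hearts (log2 change -1.95 ± 0.68, limma adjusted p = 0.101). These β-globin rows carry the identifiers that GENCODE M21 names Hbb-bs and Hbb-bt, whose coding sequences differ at 1 of 441 bases. Relative to Hba-a1 on the FPKM scale, Hbb-b1 stayed between 1.14 and 1.38 and Alas2 between 12.1 and 21.8 per 1000 in the 8 hearts. Bpgm did not keep such a ratio and ran from 9.62 to 156 per 1000. Slc4a1 ran from 0.231 to 2.41 and Epb42 from 0 to 0.413 per 1000, both from low values. Bpgm, Slc4a1 and Epb42 also did not keep the order of the globins and Alas2 in both groups. Together the 4 adult globin genes made up 0.346% to 1.65% of the summed FPKM in wild type and 0.0568% to 0.432% in knockout hearts. In bulk tissue, fewer red cells in the heart and less globin RNA per red cell cannot be told apart.

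**Figure D1:**
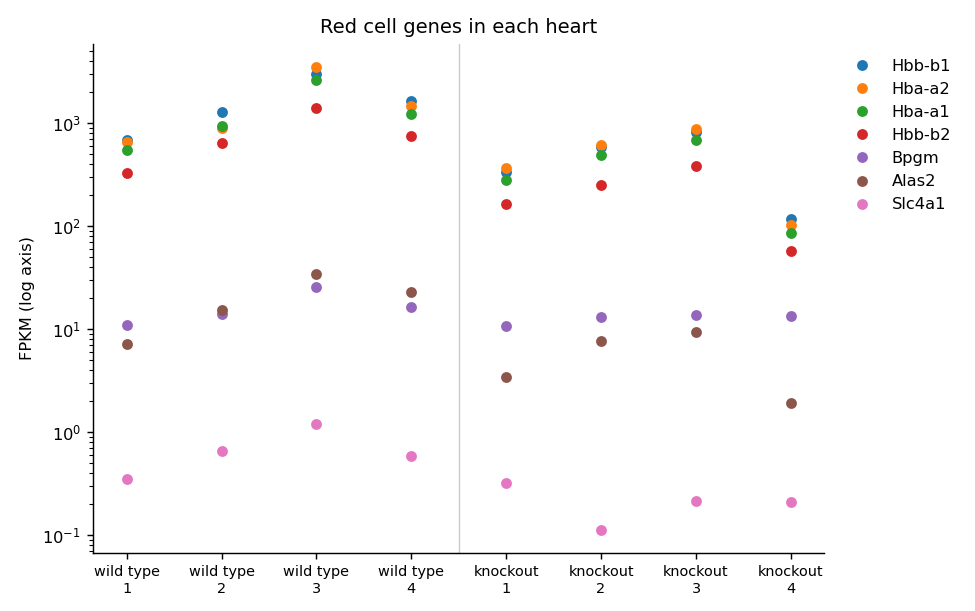
FPKM on a log axis of 7 red cell genes (colours) in each of the 8 heart libraries, wild type replicates on the left and knockout replicates on the right. The globins and Alas2 peak in wild type replicate 3 (Hba-a1 at 2631 FPKM) and are lowest in knockout replicate 4 (86.5 FPKM), while Bpgm stays between 10.7 and 25.3 FPKM.

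None of the tested red cell genes outside the set passed the test. Of 25 listed genes, 22 rows were in the table and 6 could be tested, of which 0 were higher and 0 lower by limma, with 1 higher and 2 lower at an unadjusted p under 0.05, where 29.6% of all genes tested lay. The 2 lower ones were the β-globins. The higher one was Rhd, a membrane protein gene of the red cell, at 1.14, 1.41, 1.06 and 1.65 FPKM in wild type and 1.52, 2.46, 1.76 and 3.83 FPKM in knockout hearts (log2 change 0.51 ± 0.19, limma adjusted p = 0.109). The groups overlapped, and Rhd was highest in knockout replicate 4, where the globins were lowest. Embryonic globins were listed at or near 0, with Hba-x and Hbb-bh1 listed at 0 in all 8 hearts and Hbb-y at most at 0.203 FPKM. The erythroid transcription factor genes Klf1 and Gata1 were at most at 0.0314 and 0.0501 FPKM. Ank1, a cytoskeletal gene shared with muscle and other tissues, was at 131 to 193 FPKM with a limma adjusted p of 0.893.

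Markers of other blood cells were read beside the red cell genes. The 7 platelet markers summed to 19.4 to 28.7 FPKM in wild type and 13.9 to 22.5 FPKM in knockout hearts, most of it Pf4. The 6 neutrophil markers summed to 8.61 to 27.4 FPKM in wild type and 3.58 to 7.83 FPKM in knockout hearts, with wild type replicate 4 highest for S100a8 (11.8 FPKM) and S100a9 (15.0 FPKM), and the defining marker Ly6g at 0 in all hearts. The 8 macrophage markers summed to 99.7 to 114 FPKM and 103 to 124 FPKM. Of the 2 platelet, 2 neutrophil and 8 macrophage markers tested, limma called 0, against 12.2% of all genes. At an unadjusted p under 0.05 there were 1, 2 and 2, where 29.6% of all genes tested lay. The part of these cells in the red cell values was not tested.

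The mean level of the tissue genes varied little in the same hearts, although single tissue genes went both ways, with 13 log2 changes above 0 and 12 below. The mean log2(FPKM + 1) of the 25 tissue genes was 4.34 to 4.46 in wild type and 4.28 to 4.46 in knockout hearts, whereas that of the 6 erythroid genes was 4.25 to 5.74 and 3.14 to 4.46. The difference between erythroid and tissue means was 0.58 ± 0.58 in wild type and -0.46 ± 0.54 in knockout hearts on the log2 scale, and the groups overlapped. Knockout replicate 3, at 0.08, lay above wild type replicate 1, at -0.08.

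**Figure D2:**
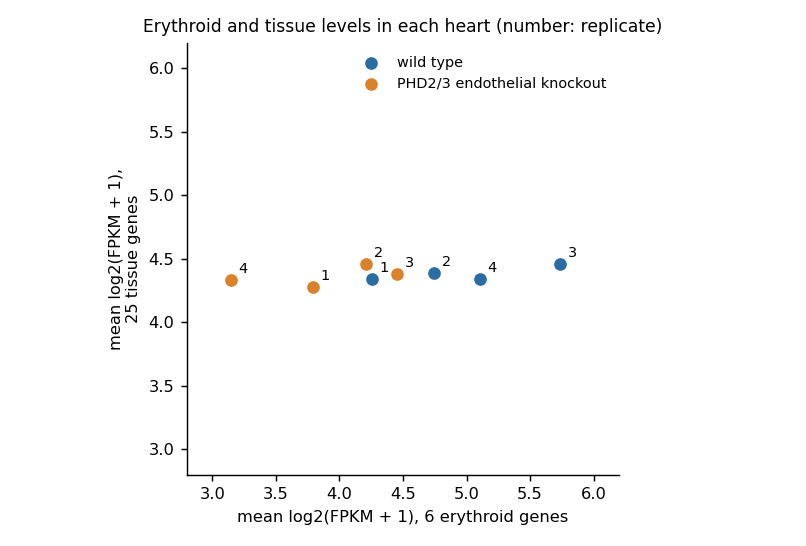
Mean log2(FPKM + 1) of the 6 erythroid genes (horizontal axis) against that of the 25 tissue genes (vertical axis), with the same scale on both axes; points are single hearts (wild type in blue, knockout in orange), numbered by replicate. The hearts spread from 3.14 to 5.74 along the erythroid axis and only from 4.28 to 4.46 along the tissue axis.

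Among all iron, heme and erythroid genes, 29 of 31 were tested, and 1 was called higher and 1 lower. That is 6.9% of those tested, against 12.2% of all genes tested (6.15% higher and 6.01% lower). At an unadjusted p under 0.05 there were 4 higher and 9 lower members, 44.8% of those tested against 29.6% of all genes. Groups without overlap were found for 4 higher and 5 lower members, 31% of those tested against 20.7% of all genes. Because the members were chosen with earlier results known, these shares only describe the set. The median log2 change was -0.13 over the 29 tested members, 0.02 over the 25 tissue genes and -0.01 over all genes. Both called genes belonged to heme synthesis, described next.

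Of the 7 tissue genes of heme synthesis, 1 was higher, 1 lower and 5 did not pass the test (28.6% called, against 12.2% of all genes), so the calls were not in one direction. At an unadjusted p under 0.05 there were 2 higher and 4 lower (85.7%, against 29.6% of all genes), and groups without overlap were found for 2 higher and 3 lower (71.4%, against 20.7%). Alas1, the rate-limiting enzyme of heme synthesis outside red cells (ENSMUSG00000032786, chromosome 9, 106233455 to 106248654), rose in the knockout hearts. The wild type hearts measured 129, 125, 124 and 89.6 FPKM and the knockout hearts 156, 192, 185 and 276 FPKM. Every knockout heart lay above every wild type heart, with knockout replicate 4 the highest and wild type replicate 4 the lowest. The mean rose 1.73-fold from 117 ± 18.2 to 202 ± 51.6 FPKM (log2 change 0.77 ± 0.18, limma adjusted p = 0.0229). The call was lost without wild type replicate 2 (limma adjusted p = 0.0573), wild type replicate 4 (0.0584) or knockout replicate 2 (0.0560), and the change was 0.61 without knockout replicate 4 (limma adjusted p = 0.0218). With the mean erythroid level of each heart as a covariate the change was 0.52 (limma adjusted p = 0.343). That level itself differed between the groups (mean log2 of 4.96 in wild type and 3.90 in knockout hearts). This setting therefore cannot separate it well from genotype, and a lost call under it does not show a role of red cells. ALAS1 and ALAS2 proteins shared 380 of 658 aligned residues. Alas2 made up 5.32% to 21.6% of the summed FPKM of Alas1 and Alas2 in wild type hearts and 0.680% to 4.86% in knockout hearts, without overlap.

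Alad, Uros and Urod, of the next steps of the chain, had lower means in the knockout hearts, and none passed the test. Alad, which joins the products of ALAS into porphobilinogen, was at 21.3, 25.3, 21.2 and 23.2 FPKM in wild type and 18.9, 17.4, 16.1 and 10.1 FPKM in knockout hearts. The groups did not overlap, and knockout replicate 4, which also had the lowest globin values, was lowest. The means were 1.46-fold apart, but the gene did not pass the test (log2 change -0.54 ± 0.17, limma adjusted p = 0.0609). It passed without knockout replicate 1 (limma adjusted p = 0.0316) or knockout replicate 4 (0.0329). Uros, which closes the porphyrin ring, was at 11.6 to 13.7 FPKM in wild type and 10.3 to 11.4 FPKM in knockout hearts, without overlap (log2 change -0.20 ± 0.08, limma adjusted p = 0.124). Urod, the decarboxylase after it, was at 49.6 ± 5.12 and 41.0 ± 5.69 FPKM, with overlap (limma adjusted p = 0.135).

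Of the last mitochondrial steps, Ppox was called lower and its neighbours had higher means. Ppox, the oxidase that makes protoporphyrin (chromosome 1, 171275990 to 171281186), was at 9.18, 11.0, 10.6 and 12.3 FPKM in wild type and 8.86, 8.05, 8.71 and 7.40 FPKM in knockout hearts. The groups did not overlap, though wild type replicate 1 and knockout replicate 1 were close. The mean fell 1.30-fold (log2 change -0.34 ± 0.10, limma adjusted p = 0.0488), just inside the threshold. The call was kept only without wild type replicate 1 or knockout replicate 1 and was lost in the other 6 omissions, where the limma adjusted p was 0.130, 0.0971 and 0.114 for wild type replicates 2, 3 and 4 and 0.109, 0.0794 and 0.0801 for the same numbers of the knockout group. With the erythroid level as a covariate, under the limit given for Alas1, the change was -0.21 (limma adjusted p = 0.511). Fech, the ferrochelatase that inserts iron, was just outside the threshold. It was at 32.0, 27.2, 31.8 and 25.7 FPKM in wild type and 33.4, 42.0, 37.5 and 52.2 FPKM in knockout hearts, without overlap (log2 change 0.47 ± 0.14, limma adjusted p = 0.0506), and passed without knockout replicate 1 (limma adjusted p = 0.0209). Cpox, which precedes Ppox, was at 6.81 ± 0.917 and 8.18 ± 1.12 FPKM, with overlap (limma adjusted p = 0.199). The ratio of Fech to Ppox FPKM was 2.09 to 3.49 in wild type and 3.77 to 7.05 in knockout hearts. Each gene already lay apart between the groups, in opposite directions. The ratio therefore had to lie apart too and is not a separate result.

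None of the 4 genes of heme breakdown passed the test, and 1 had an unadjusted p under 0.05 in limma. This was Hmox1, the inducible heme oxygenase that releases iron, carbon monoxide and biliverdin. It was at 8.02, 9.56, 8.15 and 9.41 FPKM in wild type and 12.6, 13.3, 9.70 and 10.7 FPKM in knockout hearts. The groups did not overlap, but wild type replicate 2 and knockout replicate 3 nearly met, and the gene did not pass the test (log2 change 0.36 ± 0.11, limma adjusted p = 0.0598). It passed without knockout replicate 3 (limma adjusted p = 0.0422). Hmox2, the constitutive heme oxygenase, was at 38.7 ± 2.25 and 40.4 ± 3.05 FPKM (limma adjusted p = 0.645). Blvra, the biliverdin reductase that yields bilirubin, was at 13.2 ± 1.31 and 14.6 ± 1.12 FPKM (limma adjusted p = 0.341). Blvrb, a flavin and biliverdin reductase that is abundant in red cells, was at 16.3, 18.3, 23.6 and 30.3 FPKM in wild type and 19.8, 19.8, 10.5 and 6.04 FPKM in knockout hearts (log2 change -0.72 ± 0.35, limma adjusted p = 0.208). Wild type replicate 4 was highest and knockout replicates 1 and 2 lay within the wild type range, while knockout replicate 4 was lowest, as for the globins. With the erythroid level as a covariate, under the limit given for Alas1, the change was -0.13 (limma adjusted p = 0.918).

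**Figure D3:**
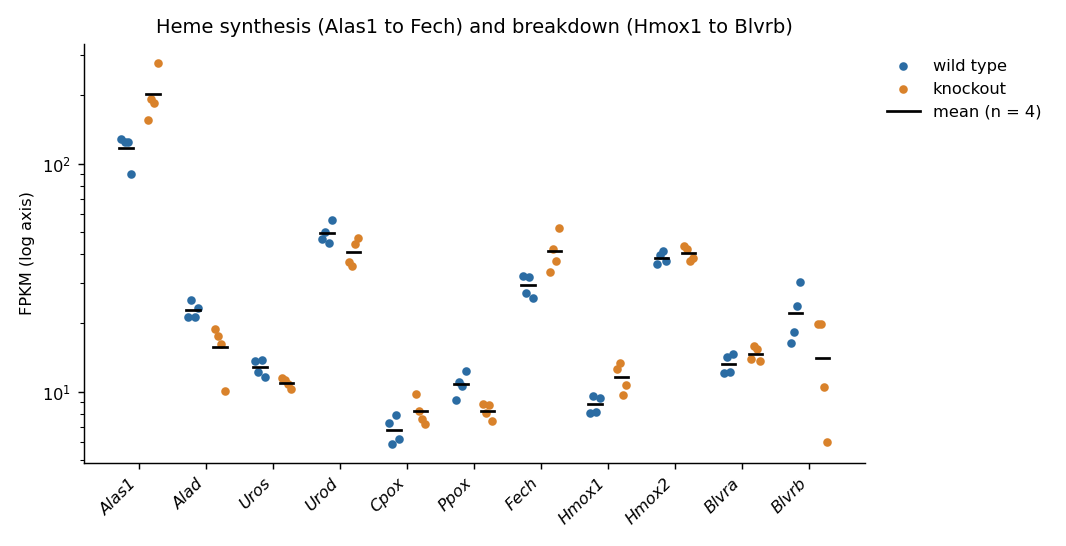
FPKM on a log axis of the 7 tissue genes of heme synthesis, in pathway order, and the 4 genes of heme breakdown; points are single hearts (wild type in blue, knockout in orange) and black bars mark group means (n = 4). Alas1 is higher in every knockout heart (mean 117 against 202 FPKM) and Ppox lower (10.8 against 8.25 FPKM).

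None of the 6 genes of iron uptake, storage and export passed the test. In limma, 2 had an unadjusted p under 0.05 (33.3%, against 29.6% of all genes). Groups without overlap were found for 1 higher and 1 lower (33.3%, against 20.7% of all genes). Slc40a1, which encodes ferroportin, the only known exporter of cellular iron, was at 5.42, 4.57, 5.08 and 4.53 FPKM in wild type and 2.78, 3.23, 3.68 and 4.39 FPKM in knockout hearts. All knockout hearts lay below the wild type hearts, with knockout replicate 4 the nearest (log2 change -0.39 ± 0.12, limma adjusted p = 0.0549). Without knockout replicate 4 the change was -0.48 and passed the test (limma adjusted p = 0.0188). Slc11a2, the divalent metal transporter DMT1 that moves iron out of endosomes, was at 7.68, 6.37, 7.64 and 6.81 FPKM in wild type and 8.34, 8.08, 9.60 and 10.3 FPKM in knockout hearts. Here every knockout heart lay above the wild type hearts (log2 change 0.31 ± 0.10, limma adjusted p = 0.0665).

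Tfrc, the transferrin receptor, was the most abundant uptake gene. It was at 126, 108, 119 and 95.8 FPKM in wild type and 103, 103, 95.7 and 70.2 FPKM in knockout hearts, with overlap (log2 change -0.28 ± 0.14, limma adjusted p = 0.200). Knockout replicate 4 was the lowest. The ratio of Tfrc to Slc40a1 FPKM was 21.2 to 23.6 in the 4 wild type hearts and 37.1, 31.8, 26.0 and 16.0 in knockout replicates 1 to 4, so knockout replicate 4 lay on the other side of the wild type range from the rest of its group. Steap3, the endosomal ferrireductase, was at 11.8 ± 1.14 and 10.1 ± 1.40 FPKM (limma adjusted p = 0.206). Trf, the transferrin gene, was at 13.4 ± 2.72 and 12.4 ± 5.06 FPKM (limma adjusted p = 0.703), and the sign of its small change depended on the setting. Fth1, the ferritin heavy chain and the highest of the tissue genes, was at 1072 to 1127 FPKM in wild type and 913 to 1127 FPKM in knockout hearts (limma adjusted p = 0.279). The light chain gene Ftl1, outside the set, was at 280.1 to 319.9 FPKM in wild type and 240.3 to 287.7 FPKM in knockout hearts (limma adjusted p = 0.174).

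The 4 genes of iron sensing did not pass the test, and none reached an unadjusted p under 0.05 in limma. Aco1 and Ireb2 encode the iron regulatory proteins, which bind iron-responsive elements in ferritin and transferrin receptor transcripts. Aco1 was at 12.4 ± 0.756 and 13.9 ± 0.416 FPKM (limma adjusted p = 0.183), and Ireb2 at 12.5 ± 1.43 and 14.7 ± 1.31 FPKM (limma adjusted p = 0.181). Hfe, whose product binds the transferrin receptor, was at 14.2 ± 0.741 and 15.0 ± 1.21 FPKM (limma adjusted p = 0.597). Hamp, which encodes hepcidin, was the most variable tissue gene. It was at 2.59, 8.48, 10.4 and 3.56 FPKM in wild type and 1.22, 11.8, 15.8 and 2.95 FPKM in knockout hearts. Both groups held 2 high hearts, replicates 2 and 3, and 2 low hearts, replicates 1 and 4, and the overlap was complete (log2 change 0.02 ± 0.70, limma adjusted p = 0.988). Of the hepatocyte markers, Fgb was listed at 0 in all hearts and Alb at 0 in all but knockout replicate 1 (0.132 FPKM), and the 6 markers summed to 7.67 to 8.67 FPKM in wild type and 2.68 to 22.0 FPKM in knockout hearts. Ahsg made up most of these sums, with Apoa1 at 2.31 FPKM in knockout replicate 3.

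Genes of iron-sulfur clusters and of the mitochondrial carriers also stayed outside the threshold. Slc25a37, mitoferrin 1, carries iron into mitochondria and is abundant in red cell precursors. It was at 3.00, 3.35, 3.53 and 2.93 FPKM in wild type and 2.84, 2.22, 2.37 and 2.10 FPKM in knockout hearts, without overlap (log2 change -0.32 ± 0.10, limma adjusted p = 0.0584), and passed without knockout replicate 1 (limma adjusted p = 0.0267). Slc25a38, a mitochondrial glycine carrier needed for erythroid heme, was at 5.63 ± 0.367 and 5.42 ± 1.49 FPKM (limma adjusted p = 0.772). Iscu, the scaffold protein of cluster assembly, was at 83.9 ± 1.85 and 98.0 ± 21.7 FPKM (limma adjusted p = 0.331). Nfs1, the desulfurase that supplies sulfur, was at 31.2 ± 1.99 and 34.6 ± 5.54 FPKM (limma adjusted p = 0.437). For both of these genes the spread of the knockout group was set by replicate 4, at 130 FPKM for Iscu and 42.8 FPKM for Nfs1.

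**Figure D4:**
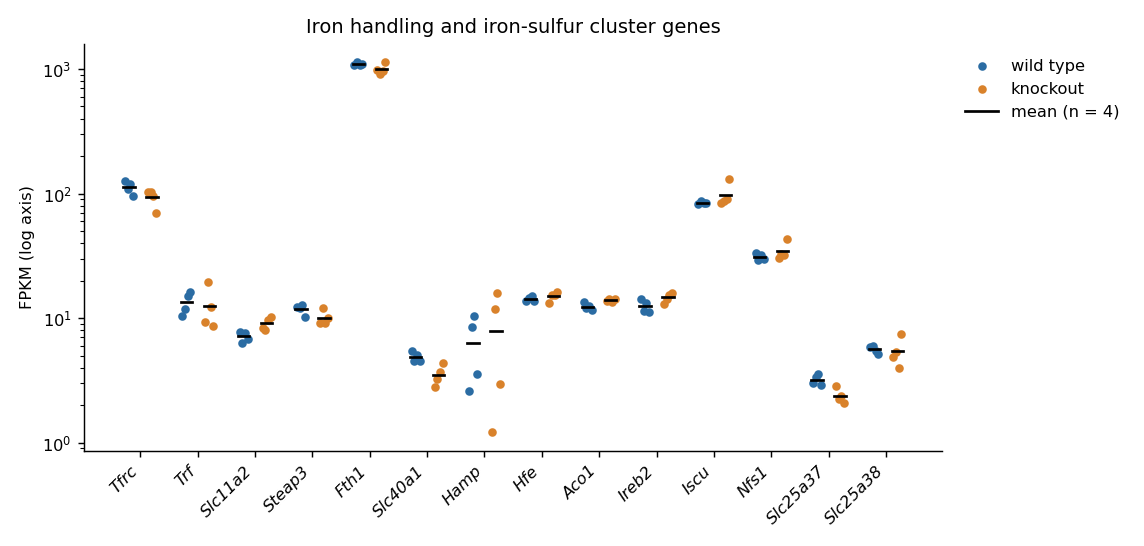
FPKM on a log axis of 14 genes of iron handling, iron sensing and iron-sulfur cluster assembly; points are single hearts (wild type in blue, knockout in orange) and black bars mark group means (n = 4). Ferroportin (Slc40a1) and Slc25a37 are lower and Slc11a2 is higher in every knockout heart, none past the adjusted threshold, and Hamp spreads from 1.22 to 15.8 FPKM.

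Other genes of the same pathways were read from lists chosen by function, with earlier results of these data known. Their shares of called genes therefore only describe the lists. Of 19 tested genes of iron handling outside the set, 4 were higher, 0 lower and 15 did not pass the test (21.1% called, against 12.2% of all genes), with a median log2 change of 0.16. Smad7, an inhibitor of BMP and TGF-beta signals that restrains hepcidin in the liver, rose from 7.02 ± 1.28 to 14.3 ± 1.55 FPKM (log2 change 0.94 ± 0.13, limma adjusted p = 0.00247). Bmp6, a ligand that induces hepcidin, rose from 6.23 ± 0.945 to 11.1 ± 1.63 FPKM (limma adjusted p = 0.00591). Both kept their call in all 8 omissions of 1 heart and lost it with a minimum change of 1.5-fold (limma adjusted p of 0.819 for Smad7 and 1.0 for Bmp6) and with the erythroid covariate, where the changes were 0.94 and 0.79 (limma adjusted p of 0.0714 and 0.0918). Bmpr2, Steap4 and the genes Cox10 and Nubp1 described after them lost their calls under both of these settings too. Bmpr2, a receptor of BMP ligands, rose from 4.13 ± 1.31 to 8.47 ± 2.23 FPKM (limma adjusted p = 0.0270), and Steap4, a metalloreductase, from 15.8 ± 2.48 to 24.0 ± 4.28 FPKM (limma adjusted p = 0.0317). Bmpr2 lost its call without wild type replicate 2 (limma adjusted p = 0.0823), wild type replicate 4 (0.0610) or knockout replicate 3 (0.0687). Steap4 lost its call without wild type replicate 2 (limma adjusted p = 0.0932), 3 (0.0765) or 4 (0.0566) or knockout replicate 2 (0.0589) or 3 (0.0712). Every knockout heart lay above every wild type heart for these 4 genes, which were picked by their call, and for 10.3% of all genes tested. The groups overlapped for Hamp, and a link between these genes and Hamp was not tested.

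Of 20 tested genes of heme handling outside the set, 1 was higher, 0 lower and 19 did not pass the test. Cox10, which makes heme O on the way to the heme of cytochrome oxidase, rose from 20.6 ± 1.46 to 27.2 ± 3.94 FPKM (log2 change 0.38 ± 0.10, limma adjusted p = 0.0444). Of 20 tested genes of iron-sulfur assembly outside the set, 1 was higher, 0 lower and 19 did not pass the test. Nubp1, a scaffold of cytosolic clusters, rose from 3.97 ± 0.484 to 5.21 ± 0.314 FPKM (log2 change 0.33 ± 0.09, limma adjusted p = 0.0447). The calls of Cox10 and Nubp1 were each lost in 6 of 8 omissions of 1 heart. For Cox10 these were each wild type heart and knockout replicates 2 and 3 (limma adjusted p of 0.0589 to 0.120), and for Nubp1 wild type replicates 1, 3 and 4 and knockout replicates 2, 3 and 4 (limma adjusted p of 0.0597 to 0.111). Both shares, 5.0%, were below the 12.2% of all genes called.

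**Figure D5:**
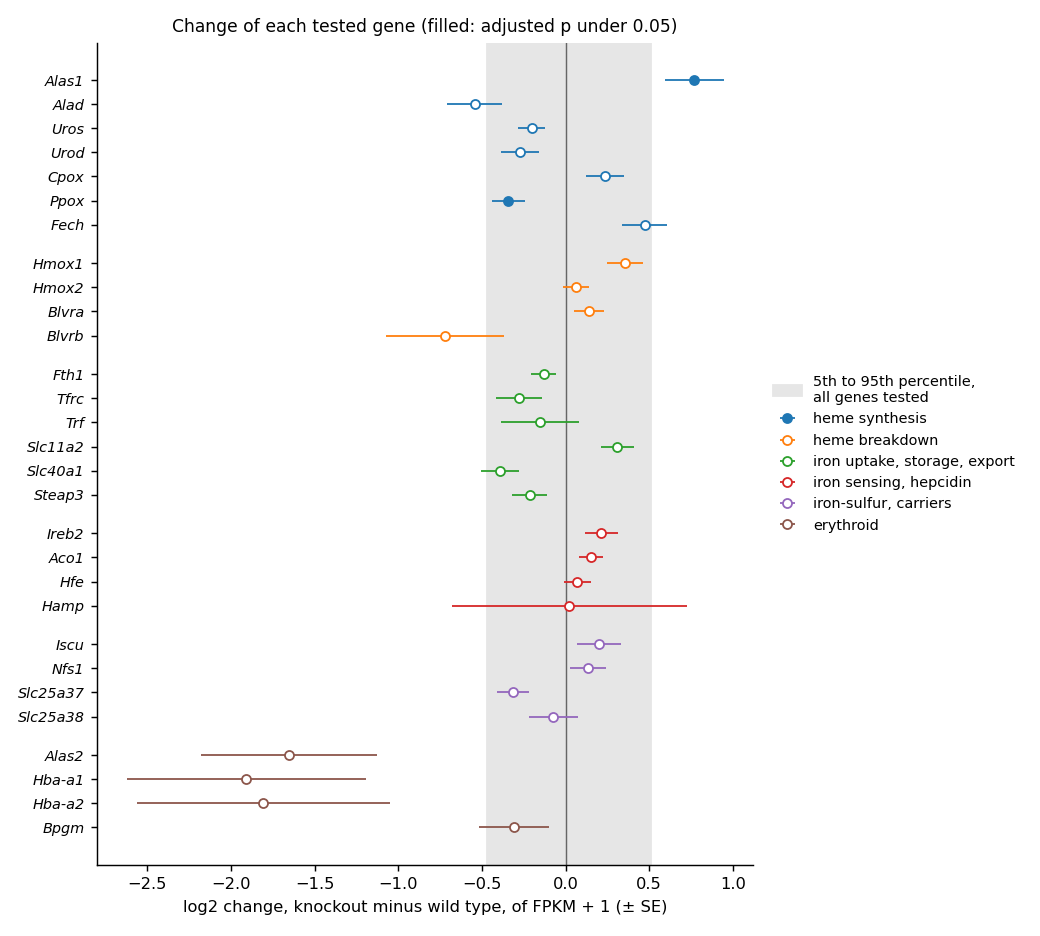
Log2 change (knockout minus wild type, of FPKM + 1) ± SE of the 29 tested genes, grouped by role; filled points have an adjusted p under 0.05 in limma, and the grey band spans the 5th to 95th percentile of all 11390 genes tested (-0.47 to 0.51). Alas1 (0.77) and Ppox (-0.34) are filled, and the globins and Alas2 lie farthest to the left with the widest errors beside Hamp.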

How the data were processed

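RNA-seq of 8 mouse hearts was read from 1 deposited table. TopHat2, Cufflinks and mm10 are named without versions in the submitters' processing notes. That the deposited values are quantile-normalised FPKM was inferred from these tools and from the values. No counts were used, so depth is unknown and no count model was run. There were 0 unmapped columns of sample values.

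Values were analysed as log2(FPKM + 1) of the deposited FPKM with limma 3.58.1 in R 4.3.3 (trend and robust options) on genes that averaged at least 1 FPKM, with Benjamini-Hochberg adjustment. The fit was tested on simulated data. Exact permutation tests over all splits of the hearts were computed in Python 3.11.15 and are given only for members under the filter. Coordinates are from GENCODE M21.

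The members and lists were chosen with earlier results of these data known. Every member is named, with up to 4 called genes of each other list by smallest p, red cell genes in the table and defining markers; some listed genes are not reported here. Ftl1, Ly6g, Fgb, Hp, Lcn2 and Cp fall outside this rule and were named after their values were seen. Alternatives covered the pseudocount, the filter, the variance model, array weights, centring, a replicate block, a minimum change, an erythroid covariate and omission of hearts.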

Additional observations from a re-analysis of the deposited data

Results flagged for a closer look

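In 4 of 62 groups of 4 hearts, 1 heart lay far from the other 3; chance gives such a group about 1 time in 20. Alas1 was at 89.6 FPKM in wild type replicate 4, the heart with airway genes, and at 124 to 129 FPKM in the other wild type hearts. Iscu was at 130 FPKM in knockout replicate 4 and at 84.0 to 90.7 FPKM in the other knockout hearts. Nfs1 was at 42.8 FPKM in knockout replicate 4 and at 30.6 to 32.6 FPKM in the others. Epb42 was listed at 0.0358 FPKM in knockout replicate 4 and at 0 in the others. With the others at 0, any value above 0 would be flagged, so the chance rate does not apply to this group.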

How the results depend on the processing

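The 2 calls among the iron, heme and erythroid genes, both in tissue genes, were sensitive to the setting, and the cause was not tested. In limma, with either count taken over all members or over tissue members, 1 was called without a filter on low values, 1 without the trend and robust options, 7 with array weights, 0 with a minimum change of 1.5-fold and 0 to 5 with 1 heart left out (0 when the heart omitted was wild type 2, wild type 4 or knockout 2, 1 when it was wild type 3 and 5 when it was knockout 1). With an erythroid covariate, which itself differed between the groups, 0 tissue members were called, and calls over all genes were not counted. Array weights called Alas1, Fech and Hmox1 higher and Alad, Ppox, Slc40a1 and Slc25a37 lower. Over all genes, the 1385 calls became 1078 without the filter, 1316 without the trend and robust options and 2028 with array weights. The count was 37 with the 1.5-fold minimum and 574 to 1819 with 1 heart left out. It was 574, 838 and 742 without wild type replicates 2, 3 and 4. Without knockout replicates 1, 2 and 3 it was 1819, 759 and 896. The replicate numbers did not pair the hearts (correlations of same-numbered deviations of -0.23, 0.01, 0.10 and -0.10), and with the replicate number as a block 613 genes, 0 members and 0 tissue members were called. The difference between erythroid and tissue levels, -1.04 in log2, was -1.26 to -0.80 with 1 heart left out. Uncalled changes that turned sign were those of Trf (0.0505 with array weights, 0.35 with the erythroid covariate, 0.0811 without both replicates 4), Hamp (-0.0571 and -0.0134 with pseudocounts of 0.1 and 0.5, -0.43 to 0.54 with 1 heart left out), Nfs1 (-0.0157 with the covariate) and Slc25a38 (-0.22 to 0.0393 with 1 heart left out). Depth is unknown, and genes under 1 FPKM were not tested across all genes.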

Other observations

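Acute-phase genes that bind hemoglobin, siderophores or copper were uneven among the hearts. Hp, which encodes haptoglobin, was at 0.329, 0.368, 0.227 and 6.48 FPKM in wild type and 1.09, 43.8, 3.40 and 0.693 FPKM in knockout hearts. Lcn2, the siderophore-binding lipocalin, was at 0.441 to 0.668 FPKM in wild type and 0.575, 4.50, 0.859 and 2.33 FPKM in knockout hearts. Cp, the ferroxidase ceruloplasmin, was at 11.1, 12.5, 12.8 and 13.5 FPKM in wild type and 11.7, 16.8, 18.8 and 34.5 FPKM in knockout hearts (limma adjusted p = 0.177). The groups overlapped for all 3 genes.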
